A study of Mus musculus with 12 samples.

Results

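Pressure overload makes heart muscle cells grow and switch genes on, and the comparison described here asks how far that response depends on the myocardin-related transcription factors (MRTFs). It is the interaction of genotype and surgery, that is, the change from sham surgery to TAC in double knockout cells minus the same change in control cells. A positive value on the log2 scale means a higher or less negative change in the knockout. TAC is an operation that narrows the aorta, so that the left ventricle pumps against a higher pressure, and sham is the operation without the narrowing. The series holds 12 libraries of mouse cardiomyocyte RNA, 3 in each of 4 groups, and 10 of the 12 made up the main comparison. It leaves out dKO sham replicate 1 and dKO TAC replicate 2, and the comparison was repeated with all 12. Control mice had the genotype alphaMHC-MerCreMre/+, and double knockout mice, written dKO (dKOs), had MHC-MerCreMre/+ with Mrtf-a-/- and Mrtf-bflox/flox. MerCreMer is a Cre recombinase that tamoxifen switches on, and the labels name the alpha myosin heavy chain promoter as its driver, which acts in cardiomyocytes. Factor A was thus missing from every cell of the dKO mice, and factor B could be lost only where Cre acted. All 4 groups were male, carried the Cre transgene and received 3 tamoxifen injections of 30 ug/g. Cells were isolated at 11 weeks of age, 7 days after surgery. The sample protocol gives an age of 10 weeks at surgery and the series' design text 8 weeks. The labels do not say that each library came from its own animal, so p-values measure the spread between these libraries.

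MRTFs are cofactors of serum response factor (SRF), which binds the CArG box, a short element in the promoters of actin and other cytoskeletal genes. They are held in the cytoplasm by actin monomers, and enter the nucleus when these are built into filaments, for example under mechanical load. In the heart, overload also brings back genes of the fetal ventricle, such as the natriuretic peptides, the slow myosin heavy chain and skeletal actin.

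The table names factor A Mkl1 and factor B Mkl2. Mkl1 stood at 7.59, 11.4 and 8.89 CPM (read counts relative to the scaled total of the library) in sham controls and at 9.32, 16 and 15.6 in TAC controls. In dKO sham it stood at 2.15, 2.88 and 3.20 CPM and in TAC dKOs at 2.5, 2.93 and 2.22, so all 6 dKO libraries lay below all 6 control libraries. Its interaction was -0.92 ± 0.38 (SE), with an edgeR adjusted p of 0.313. Mkl2 stood at 32.6 to 44.1 CPM in sham controls, 30.1 to 37.0 in TAC controls, 15.2 to 26.5 in sham dKOs and 18.1 to 28.1 in TAC dKOs. Its interaction was 0.29 ± 0.22, and that of Myocd, the related cardiac cofactor, was -0.02 ± 0.25. Srf stood at 80.8 to 114 CPM in the control libraries and at 52.1 to 85.2 in the dKO libraries, with an interaction of -0.23 ± 0.21. None of these 4 genes passed the test of the interaction.

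Promoter sequences are given for 4 named genes, of which only Prkab2 passed the test of the interaction. Prkab2 had the smallest p of all genes, Acta1 is a classical MRTF and SRF target, and Ankrd1 and Nppb are overload genes that are described below. The sequences are those of RefSeq (GRCm38.p6), 5′ to 3′ on the gene's strand, and each holds the 250 bases before the RefSeq start. Capitals mark a CArG box, or CATTCC and its complement GGAATG, the core recognised by TEAD factors of the Hippo pathway.

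Acta1, chr8:123894776-123895025, minus strand: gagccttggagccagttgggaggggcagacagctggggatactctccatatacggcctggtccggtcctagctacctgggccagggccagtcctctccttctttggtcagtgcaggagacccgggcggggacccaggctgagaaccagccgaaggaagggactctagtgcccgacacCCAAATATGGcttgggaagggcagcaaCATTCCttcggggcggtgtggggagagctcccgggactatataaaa
Ankrd1, chr19:36119845-36120094, minus strand: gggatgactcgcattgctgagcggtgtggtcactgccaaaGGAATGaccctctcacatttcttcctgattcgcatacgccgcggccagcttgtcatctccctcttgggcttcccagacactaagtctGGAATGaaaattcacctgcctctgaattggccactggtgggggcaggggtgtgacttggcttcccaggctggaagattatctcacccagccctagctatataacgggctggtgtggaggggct
Nppb, chr4:147985650-147985899, plus strand: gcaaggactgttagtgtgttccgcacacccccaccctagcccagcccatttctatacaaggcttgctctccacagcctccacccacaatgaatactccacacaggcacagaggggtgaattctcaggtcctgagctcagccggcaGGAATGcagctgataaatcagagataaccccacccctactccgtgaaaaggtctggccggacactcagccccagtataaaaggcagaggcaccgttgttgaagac
Prkab2, chr3:97657962-97658211, plus strand: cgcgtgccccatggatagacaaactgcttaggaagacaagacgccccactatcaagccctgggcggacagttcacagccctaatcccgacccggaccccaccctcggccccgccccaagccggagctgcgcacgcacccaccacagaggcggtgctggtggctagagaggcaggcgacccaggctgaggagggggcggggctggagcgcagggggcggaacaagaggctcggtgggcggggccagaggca
Prkab2, chr3:97658232-97658261, plus strand, inside the transcript: gccttgtagCCATTTTAGGaggaaacccgg

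Acta1 carried a CArG box from position -73 and a CATTCC from -46, counted in bases from the start. Ankrd1 carried GGAATG at -210 and at -123, and Nppb carried it at -105. Prkab2 carried a CArG box that began at base 30 of the transcript. Windows of 300 bases, with 50 of them after the start, were searched on both strands, and the matches shown do not overlap. A CArG box was found in 1.63% of 32851 RefSeq windows of that length and CATTCC or GGAATG in 14.7%. Among the 20 genes named below for the smallest p, 14 had a window in the table, and a CArG box lay in those of Prkab2, Fbxl22 and Myl7. CATTCC or GGAATG lay in the windows of Cp, Fbxl22, Myl7 and Smtn. Dync1li1, which with Prkab2 passed the test of the interaction, had neither motif in its window. These are matches of letters, not measured binding sites.

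Totals per library lay between 20082000 and 29675212 counts. The libraries left out of the main comparison stood apart in their mitochondrial share, at 16.51% and 15.32% of counts against 23.16% to 32.57% in the other 10. They also stood apart in transcript length: across 9741 nuclear coding genes the deviation from the rest of the group fell with length (Spearman rho across genes -0.621 and -0.598). In the 4 dKO libraries kept it rose with length, with a rho of 0.457 to 0.648, their group here including one of the libraries left out, and the control libraries lay between -0.104 and 0.114. In the 10 libraries the interaction still tended to be higher in long transcripts, with a Spearman rho of 0.244 across 9709 genes. Its median was 0.13 in transcripts of at least 7374 nt and -0.12 in those of at most 3087 nt. With all 12 libraries rho was 0.444. A fit with the length trend removed from each library is therefore given beside the lists of long genes. Knockout and control libraries shared a ventricular profile with high Myh6, Tnni3 and Ryr2, and markers of other cells were present in every library. In dKO sham replicate 1, however, Tnni3 stood at 14800 CPM, against 1926 to 4532 in the others. Ryr2 stood there at 629 CPM, against 900 to 2774.

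Most of the response to TAC had the same direction in both genotypes. In control, 501 genes rose and 270 fell of 14923 tested (3.36% and 1.81%), and in dKO 885 rose and 695 fell (5.93% and 4.66%), at a Benjamini-Hochberg adjusted p under 0.05 in edgeR. Of the 501 genes that rose in control, 474 (94.6%) had a positive change in dKO, and 223 rose in both, which is 44.5% of the control list and 25.2% of the dKO list. Of the 270 that fell in control, 239 (88.5%) had a negative change in dKO, and 111 fell in both, 41.1% of one list and 16% of the other. The median log2 change of the 501 genes was 1.79 in control, where they were chosen, and 1.37 in dKO. The 885 genes that rose in dKO had a median of 0.93 there, where they were chosen, and 0.33 in control, and the 695 that fell had -1 and -0.38. Across all 14923 genes the changes in the 2 genotypes had a Pearson r of 0.606 and a Spearman rho of 0.5, as a description over genes that share libraries. The typical size of a change, as the median of its absolute value, was 0.26 in control and 0.33 in dKO. Leaving out any 1 of the 10 libraries moved at least 1 of these 4 counts by over 1.5 times: without control sham replicate 1 the control counts were 5 and 5 and without control sham replicate 3 they were 6 and 3. Without dKO sham replicate 2 the dKO counts were 43 and 39, and without dKO sham replicate 3 they were 19 and 18.

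**Figure D1:**
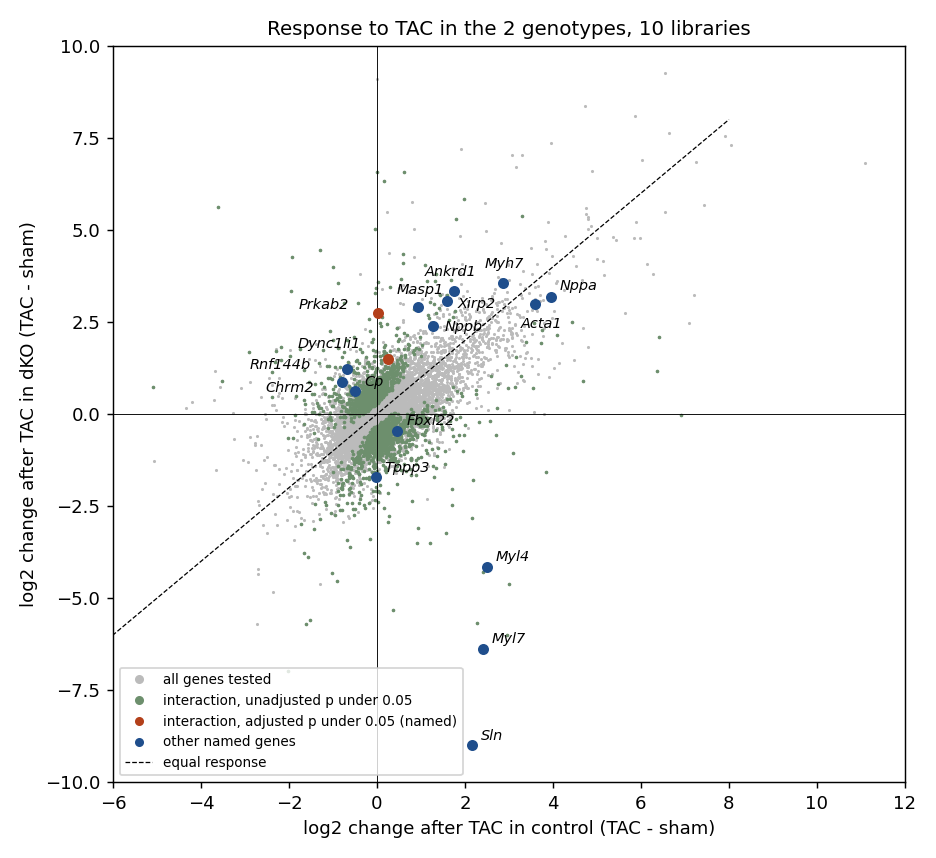
Log2 change after TAC in control (horizontal) against dKO (vertical) for all 14923 genes tested in 10 libraries. Genes on the dashed line responded equally. Prkab2 and Dync1li1, in red, passed the test of the interaction, and the atrial genes Myl4, Myl7 and Sln lie far below the line.

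The interaction itself passed the threshold for 2 genes of 14923 (0.0134%), both higher in the dKO response. With all 12 libraries none of 14712 passed (0%), while 697 had an unadjusted p under 0.05, 2.45% of all genes with a positive and 2.29% with a negative value. With 10 libraries, 1104 genes (7.4%) had a positive and 990 (6.63%) a negative interaction at an unadjusted p under 0.05. The number called depended on the tool: DESeq2 called 312 higher and 153 lower with 10 libraries, and 8 and 3 with 12. The typical SE of an interaction was 0.295 on the log2 scale with 10 libraries and 0.406 with 12.

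Prkab2 encodes the beta 2 subunit of AMP-activated protein kinase (AMPK), an energy sensor, and lies on chromosome 3 from 97658193 to 97673812 (GRCm38, GENCODE M21). It stood at 58.5, 55.2 and 72.2 CPM in sham controls and at 57.6, 63.4 and 68.4 in TAC controls, so the control groups overlapped. In dKO sham it stood at 32.7 and 30.1 CPM and in TAC dKOs at 188 and 236. The libraries left out had 28.6 CPM in sham dKOs and 75 in TAC dKOs. All 3 sham dKO libraries thus lay below every control library and all 3 TAC dKO libraries above it, the left-out one by a small margin. The log2 change was 0.03 ± 0.13 in control and 2.75 ± 0.17 in dKO. The interaction was 2.73 ± 0.22 (95% interval 2.25 to 3.21, edgeR Benjamini-Hochberg adjusted p 0.00428). With all 12 libraries it was 2.42 ± 0.45, with an adjusted p of 0.515. The call was also lost without dKO sham replicate 2 (edgeR adjusted p 0.127) and without dKO sham replicate 3 (0.164), where 1 library stands for its group and is assumed to vary like the others. It was lost as well with dKO TAC replicate 2 put back (0.453).

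Dync1li1 encodes a light intermediate chain of cytoplasmic dynein, the motor that carries cargo towards the minus ends of microtubules, and lies on chromosome 9 from 114688790 to 114724302. It stood at 64.8, 62.2 and 63.0 CPM in sham controls, at 74.0, 79.1 and 74.4 in TAC controls, at 58.5 and 59.2 in sham dKOs and at 160 and 172 in TAC dKOs. The libraries left out had 65.4 CPM in sham dKOs and 94.7 in TAC dKOs. TAC libraries were above sham libraries in both genotypes, and the step was larger in dKO. The change was 0.26 ± 0.08 in control and 1.49 ± 0.10 in dKO, and the interaction was 1.23 ± 0.13 (95% interval 0.95 to 1.52, edgeR Benjamini-Hochberg adjusted p 0.0228). With all 12 libraries it was 0.96 ± 0.28, with an adjusted p of 0.841. The call was lost without any 1 of control sham replicates 1 and 3, control TAC replicate 2, dKO sham replicates 2 and 3 and dKO TAC replicates 1 and 3, at edgeR adjusted p of 0.111, 0.133, 0.0604, 0.26, 0.515, 0.192 and 0.171 in that order.

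The next 8 genes with a positive interaction did not pass, with edgeR adjusted p from 0.0566 to 0.093. All 8, which were chosen for a small p, rose in dKO after TAC, and their dKO groups of 2 libraries each did not overlap. How many of all genes had separate dKO groups was not counted, so no conclusion is drawn from this separation. Once the libraries left out were included, the dKO groups of Rnf144b, Ogfrl1 and Cp overlapped. Parm1, which encodes a mucin-like membrane protein, stood at 117 to 137 CPM in sham controls, 123 to 135 in TAC controls, 103 and 114 in sham dKOs and 259 and 262 in TAC dKOs. Its interaction was 1.26 ± 0.16. Hif1a, the oxygen-regulated subunit of a hypoxia transcription factor, rose in both genotypes, from a range of 68.5 to 74.1 CPM to one of 93.2 to 113 in control and from 70.3 and 72.3 to 200 and 202 in dKO. Its interaction was 0.96 ± 0.15. Masp1, a protease of the lectin pathway of complement, had 4.84 to 7.51 CPM in sham controls, 9.40 to 13.7 in TAC controls, 11.0 and 11.1 in sham dKOs and 80.0 and 86.0 in TAC dKOs. It rose in both genotypes, with an interaction of 1.97 ± 0.28. Serpinb6b, a serine protease inhibitor, had an interaction of 1.56 ± 0.23. Mob1b, a coactivator of Hippo kinases, had one of 1.18 ± 0.16, and Ogfrl1 one of 1.21 ± 0.17. In the library left out of dKO TAC, 7 of the 10 genes with the smallest p on this side stood above all 3 dKO sham libraries, but 1 of 10 stood closer to the dKO TAC mean than to the dKO sham mean.

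Tppp3 had the smallest p among negative interactions once predicted genes were left out, and it encodes a protein that promotes tubulin assembly. It stood at 11.7, 14.6 and 10.9 CPM in sham controls, 11.3, 13.0 and 12.1 in TAC controls, 13.5 and 15.8 in sham dKOs and 4.67 and 4.23 in TAC dKOs. The control groups overlapped and the dKO groups did not, and the interaction was -1.69 ± 0.22 (edgeR adjusted p 0.0566). The 10 genes named on this side had edgeR adjusted p from 0.0566 to 0.103, none passed, and all 10 fell in dKO after TAC. Fbxl22, an F-box protein of the sarcomere, stood at 38.9 to 41.3 CPM in sham controls, 52.6 to 57.8 in TAC controls, 20.4 and 20.7 in sham dKOs and 13.9 and 16.3 in TAC dKOs. It rose in control and fell in dKO, with an interaction of -0.91 ± 0.14, but the libraries left out had 71.0 CPM in sham dKOs and 21.7 in TAC dKOs. Car4, a membrane-bound carbonic anhydrase, fell in both genotypes, from a range of 27.7 to 29.7 CPM to one of 17.6 to 19.96 in control and from 29.3 and 36.9 to 10.1 and 10.7 in dKO. Its interaction was -1.04 ± 0.17. Smtn, which encodes the actin-binding protein smoothelin, had an interaction of -0.85 ± 0.15, with 142 to 161 CPM in both control groups, 148 and 154 in sham dKOs and 85.3 and 86.7 in TAC dKOs. Efnb1, a ligand of Eph receptors, had -0.95 ± 0.17, Tmem88, a membrane protein that dampens Wnt signals, -1.63 ± 0.25, and the scavenger receptor Scarf1 -1.05 ± 0.18. The atrial genes Sln, Myl4 and Myl7 complete the 10 and are described with the other atrial genes. Tmem88 and Scarf1 are also made by endothelial cells, whose markers are given below. Of these 10 genes, the dKO TAC library left out stood below all 3 dKO sham libraries in 5. Of the 20 genes on both sides, 20 kept their sign with all 12 libraries and in each of the 25 alternative fits. These genes were chosen by their p in the same data, and the fits share most libraries, so a kept sign is not independent evidence. The share of all genes that kept their sign was not counted. DESeq2 on 12 libraries called 3 of the 20.

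**Figure D2:**
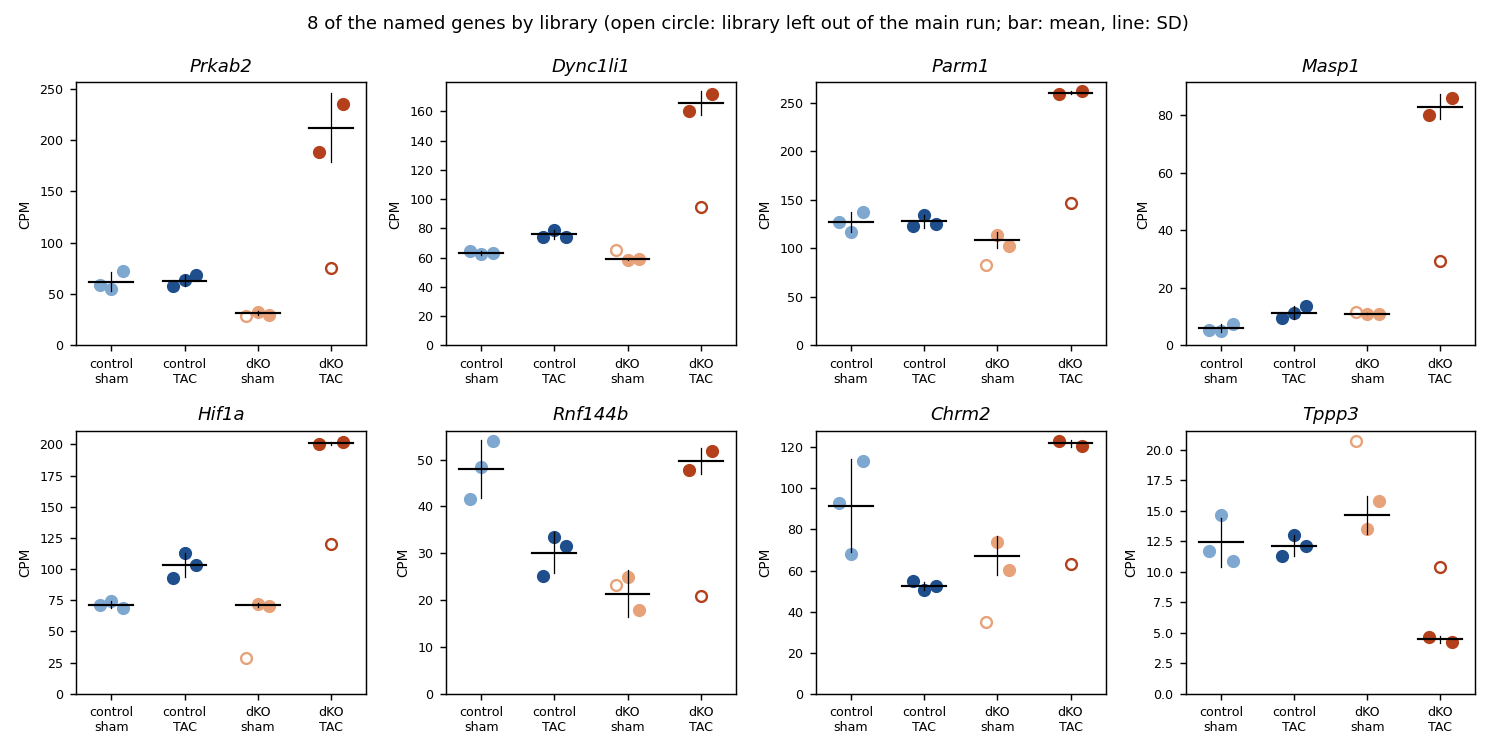
CPM of 8 named genes in every library of the 4 groups, with filled circles for the 10 libraries of the main comparison and open circles for the others. Bars are means and lines SDs of the filled circles (n = 3 or 2). Prkab2 stands between 55.2 and 72.2 CPM in control with or without TAC and at 188 and 236 in TAC dKOs, and the open circle of dKO TAC lies between the dKO groups in most panels.

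Of 14923 genes tested, 8 passed the test of the TAC effect in both genotypes with opposite signs, against 223 that rose and 111 that fell in both. These 8 were singled out after the values were seen, and the lists behind them shrank without single libraries, as given above. Chrm2, the muscarinic receptor that slows the heart, fell in control from 93.0, 68.2 and 113 CPM to 54.7, 50.6 and 52.4. In dKO it rose from 74.0 and 60.4 CPM to 123 and 121, and the libraries left out had 35.0 in sham and 63.2 in TAC. Its interaction was 1.66 ± 0.26, with an edgeR adjusted p of 0.093. Rnf144b, a ubiquitin ligase, fell in control from 41.6, 48.5 and 54.1 CPM to 25.2, 33.6 and 31.6 and rose in dKO from 24.9 and 17.9 to 47.8 and 51.8, an interaction of 1.89 ± 0.25. The dKO TAC library left out had 20.8 CPM, inside the range of sham dKOs. Ceruloplasmin (Cp), a copper-binding ferroxidase, had a change of -0.49 ± 0.11 in control and 0.62 ± 0.13 in dKO. Fnip2, a partner of folliculin that binds AMPK, had -0.49 ± 0.10 and 0.53 ± 0.13. Tdrkh had -0.62 ± 0.14 and 0.61 ± 0.17, and A430105I19Rik, a gene with no assigned function here, had -0.54 ± 0.12 and 0.61 ± 0.15. Fbxl22 and the atrial gene Mybphl went the other way. None of the 8 passed the test of the interaction.

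Overload marker genes responded strongly in both genotypes. Nppb, which encodes B-type natriuretic peptide, stood at 272, 264 and 313 CPM in sham controls and at 597, 880 and 588 in TAC controls. It stood at 99.5 and 127 CPM in sham dKOs and at 621 and 566 in TAC dKOs, with 101 and 754 in the libraries left out. All dKO sham libraries were thus below all control sham libraries, while after TAC the genotypes overlapped. The log2 change was 1.28 ± 0.18 in control and 2.39 ± 0.23 in dKO, and the interaction was 1.11 ± 0.28 (95% interval 0.47 to 1.75, edgeR adjusted p 0.166). Ankrd1, a stretch-responsive ankyrin repeat protein of the sarcomere and nucleus, stood at 695, 537 and 1128 CPM in sham controls and at 1966, 3390 and 2568 in TAC controls. It stood at 472 and 554 CPM in sham dKOs and at 5631 and 4843 in TAC dKOs, with 495 and 5537 in the libraries left out, so that every dKO TAC library lay above every control TAC library. Its interaction was 1.60 ± 0.46 (0.58 to 2.63, edgeR adjusted p 0.191), and 1.65 with all 12 libraries. Xirp2, an actin-binding repeat protein of the intercalated disc, rose by 1.58 ± 0.24 in control and by 3.07 ± 0.31 in dKO. It reached 3545 and 3986 CPM in TAC dKOs and 2028 in the dKO TAC library left out, against 986 to 1869 in TAC controls.

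Other markers had intervals that covered 0. Nppa, which encodes atrial natriuretic peptide, rose by 3.95 ± 0.36 in control and by 3.18 ± 0.42 in dKO, with an interaction of -0.77 ± 0.50 (95% interval -1.90 to 0.36). It stood at 60.8 to 112 CPM in sham controls, 810 to 1764 in TAC controls, 165 and 258 in sham dKOs and 1838 and 1992 in TAC dKOs. Myh7, the slow myosin heavy chain, had an interaction of 0.71 ± 0.78 (-1.04 to 2.46). Its control TAC libraries were spread, at 393, 379 and 1599 CPM, against 4212 and 5340 in TAC dKOs and 374 and 433 in sham dKOs. Myh6, the fast isoform, had an interaction of -0.34 ± 0.45. Acta1, skeletal actin, rose by 3.60 ± 0.44 in control and by 2.98 ± 0.54 in dKO, an interaction of -0.62 ± 0.64 (-2.05 to 0.82). On the linear scale its levels were far apart: 158 to 364 CPM in sham controls, 1658 to 3539 in TAC controls, 8.20 and 13.4 in sham dKOs and 63.1 and 107 in TAC dKOs. The main dKO TAC libraries thus stayed below every control sham library, and the interval of the interaction covered 0. The dKO TAC library left out had 261 CPM, and with all 12 libraries the interaction was 0.22. The 20 genes of the fetal and hypertrophic program had a median change of 1.58 in control and 2.59 in dKO and a median interaction of 0.28, against -0.03 over all genes. At an unadjusted p under 0.05, 6 were positive and 1 negative (all genes, 7.4% and 6.63%). In the fit of all 12 libraries they were 4 and 1 (all genes, 2.45% and 2.29%).

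**Figure D3:**
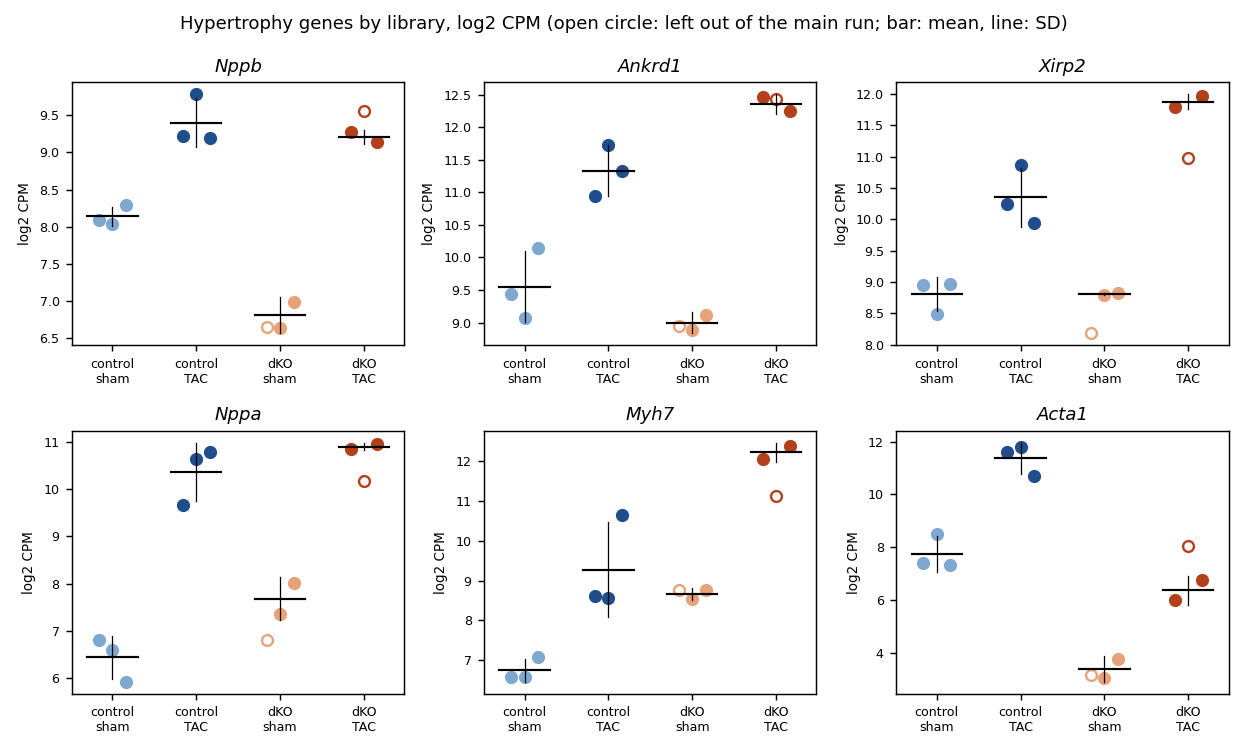
Log2 CPM of 6 overload genes in every library, with open circles for the libraries left out of the main comparison and bars and lines for mean and SD of the others. Nppb starts lower in sham dKOs and reaches the level of control TAC, while Acta1 rises in both genotypes, from a lower level in dKO.

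MRTF and SRF targets of the cytoskeleton did not move as a block. The 35 genes had a median change after TAC of 0.79 in control and 0.25 in dKO, and the median interaction was -0.42. In control 9 rose and in dKO 8 (all genes, 3.36% and 5.93%), and 10 of 35 had a positive interaction (all genes, 7079 of 14923). At an unadjusted p under 0.05, 3 were positive (Vcl, Ankrd1 and Itgb1) and 3 negative (Cnn2, Myl9 and Lima1), near the 7.4% and 6.63% of all genes. The counts were 1 and 3 with all 12 libraries (all genes, 2.45% and 2.29%), and the median was -0.17. Vcl, the adhesion protein vinculin, rose in dKO from 127 and 125 CPM to 235 and 288, while control sham ranged from 158 to 171 CPM and control TAC from 177 to 215, an interaction of 0.83 ± 0.19. Calponin 2 (Cnn2), an actin-binding protein, had 35.8 to 51.2 CPM in sham controls, 51.3 to 84.9 in TAC controls, 23.0 and 28.5 in sham dKOs and 20.1 and 15.7 in TAC dKOs. Its interaction was -1.23 ± 0.33 and that of the regulatory light chain Myl9 was -1.77 ± 0.61. Cnn2 and Myl9 are also made by smooth muscle and fibroblasts, whose marker levels are given below.

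Genes of cell junctions and of the membrane anchorage of the sarcomere had mostly positive interactions. Of 18 intercalated disc genes 16 were positive, 9 of them at an unadjusted p under 0.05, where 7.4% of all genes are. Their median change was -0.01 in control and 0.57 in dKO, and the median interaction was 0.44. After TAC 2 rose in control and 8 in dKO (all genes, 3.36% and 5.93%). N-cadherin (Cdh2), which joins neighbouring cardiomyocytes, stood at 172 to 207 CPM in sham controls, 139 to 166 in TAC controls, 183 and 200 in sham dKOs and 293 and 311 in TAC dKOs. Its interaction was 0.98 ± 0.18 with an edgeR adjusted p of 0.103. The junction receptor Cxadr had 25.6 to 32.7 CPM in sham controls, 22.6 to 31.0 in TAC controls, 33.4 and 39.0 in sham dKOs and 70.5 and 79.9 in TAC dKOs, an interaction of 1.17 ± 0.23. Plakophilin 2 (Pkp2), a desmosome protein, had 0.93 ± 0.20, and desmoplakin (Dsp) 0.80 ± 0.26. Connexin 43 (Gja1), the main gap junction protein of the ventricle, had 0.43 ± 0.17. None passed over all genes, and with all 12 libraries 4 of the 18 were positive at an unadjusted p under 0.05 (all genes, 2.45%).

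Of 29 genes of the costamere, integrins and dystrophin complex, 9 had a positive and 0 a negative interaction at an unadjusted p under 0.05 (all genes, 7.4% and 6.63%), with a median of 0.26. Only 1 was positive at that level with all 12 libraries (all genes, 2.45%). Dystrophin (Dmd), which links actin to the membrane, had 94.9 to 137 CPM in sham controls, 134 to 173 in TAC controls, 73.3 and 83.4 in sham dKOs and 217 and 249 in TAC dKOs. Its interaction was 1.27 ± 0.26 (edgeR adjusted p 0.111), and the libraries left out had 21.9 and 71.8 CPM. Delta-sarcoglycan (Sgcd), a partner of dystrophin, had 0.94 ± 0.24. Of 32 sarcomere and Z-disc genes 25 were positive, with a median of 0.26. Nebl, the thin filament protein nebulette, had 1.11 ± 0.27. Many of these transcripts are long, and in the main comparison 17.3% of long genes against 4.28% of short ones had a positive interaction at an unadjusted p under 0.05. With the length trend removed these shares were 9.97% and 7.41%. The list medians were then 0.38 for junctions, 0.14 for costameres and 0.25 for the sarcomere, and with all 12 libraries and the trend removed 0.36, 0.11 and -0.01.

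**Figure D4:**
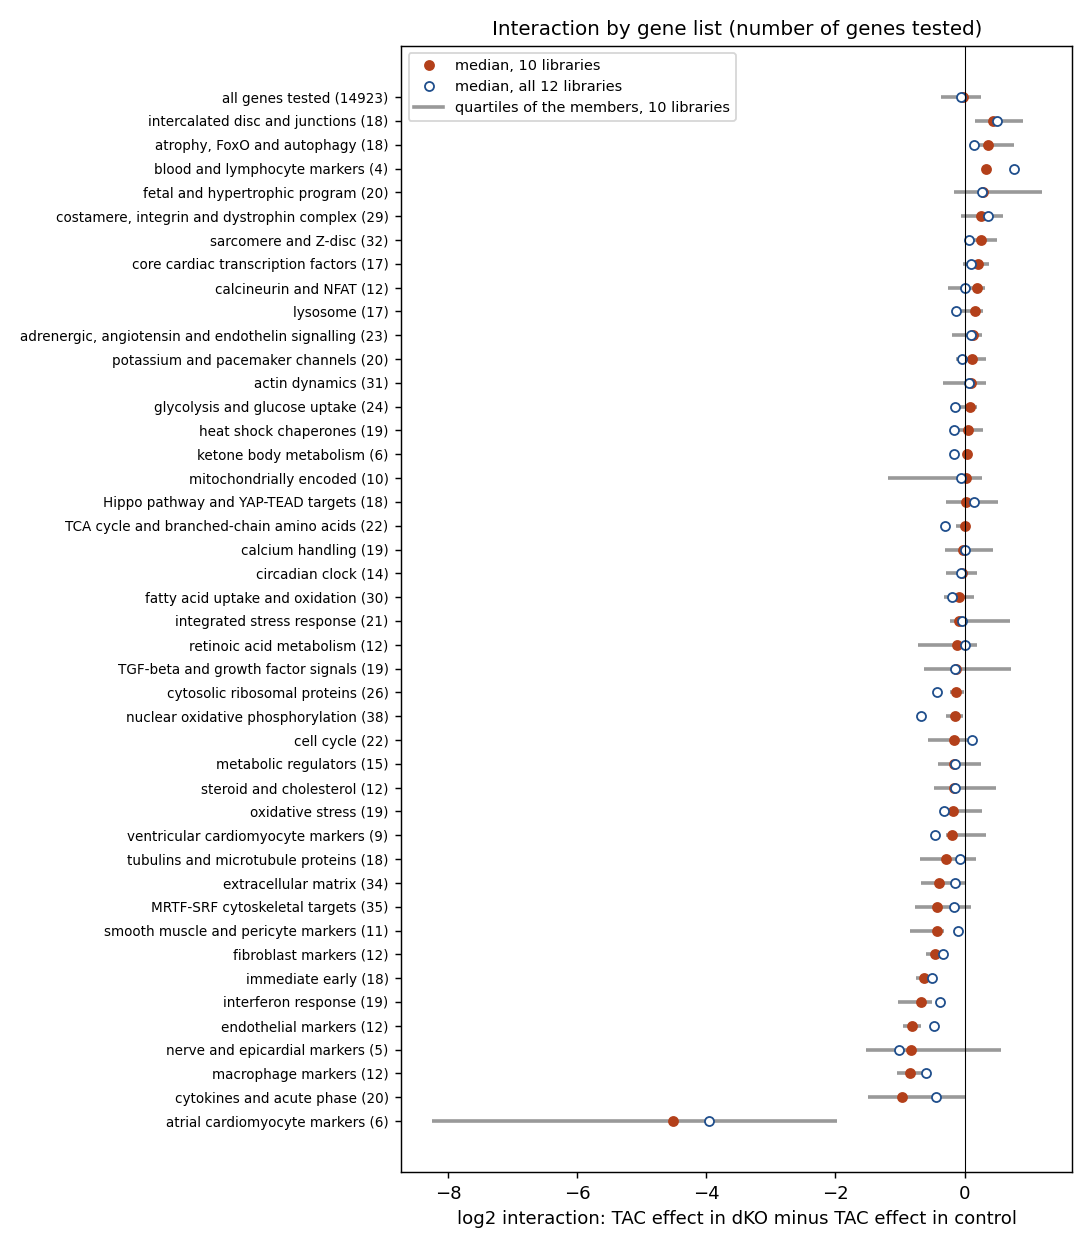
Median log2 interaction of 43 gene lists, with the quartiles of their members, in 10 libraries (filled) and all 12 (open), with all genes tested at the top. Intercalated disc genes lie highest, at 0.44, and atrial genes lie lowest, at -4.52.

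Matrix and cell cycle genes responded in both genotypes. Of 34 matrix genes 23 rose in control and 14 in dKO (all genes, 3.36% and 5.93%). Their median changes were 3.33 and 2.83, and none had an interaction at an unadjusted p under 0.05. The median interaction was -0.39, and it ranged from -0.94 to 0.53 over 15 alternatives: 1 alternative, the fit without control TAC replicate 3, reversed it. Collagen 1 alpha 1 (Col1a1) shows the spread, with 181, 695 and 1812 CPM in TAC controls and 521 and 441 in TAC dKOs, and an interaction of -1.21 ± 1.10. Spp1, the secreted protein osteopontin, had -2.46 ± 1.60. Of 22 cell cycle genes 16 rose in control and 11 in dKO (all genes, 3.36% and 5.93%). The proliferation marker Mki67 rose from a range of 4.45 to 5.85 CPM to one of 37.1 to 82.7 in control and from 6.69 and 9.79 to 54.2 and 37.1 in dKO, an interaction of -1.10 ± 0.46. The replication helicase subunit Mcm5 had -1.43 ± 0.51.

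Lists of energy metabolism had negative median changes in both genotypes, except glycolysis and glucose uptake, at 0.02 in control and 0.07 in dKO. The 30 fatty acid genes had a median change of -0.62 in control and -0.64 in dKO, with an interaction of -0.08, which was -0.19 with all 12 libraries. The 22 genes of the TCA cycle and branched-chain amino acids had -0.40 and -0.43, with an interaction of 0, which was -0.30 with all 12. The 38 nuclear genes of oxidative phosphorylation had -0.28 and -0.45, and their interaction of -0.15 was -0.67 with all 12 libraries and -0.04 with the length trend removed. Of the metabolic regulators, Ppard, a lipid-sensing nuclear receptor, had an interaction of -0.86 ± 0.18 and Esrrg, an oestrogen-related receptor of the heart, one of 0.74 ± 0.23. The medians of glycolysis (0.08), ketone body genes (0.04) and calcium handling (-0.03) were close to that of all genes. Among ion channels, Kcnip2, the subunit of the fast transient outward potassium current, fell in dKO from 157 and 137 CPM to 32.3 and 50.6. Control sham ranged from 185 to 213 CPM and control TAC from 94.9 to 179, which did not pass, and the interaction was -1.15 ± 0.39. It was -1.44 with all 12 libraries. Cacna1h, a T-type calcium channel, had -1.01 ± 0.26, and the potassium channel Kcnq1 0.45 ± 0.15. With all 12 libraries these were -0.68 and 0.21. The dKO sham library left out had 49.8 CPM of Kcnq1, against 49.2 and 49.3 in TAC dKOs.

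Atrophy and FoxO genes, which drive protein breakdown, had a median change of -0.29 in control and 0.03 in dKO, with an interaction of 0.36. Of 18 genes 16 were positive, 5 of them at an unadjusted p under 0.05, and none was negative at that level. Of all genes, 7079 of 14923 were positive and 7.4% were so at that level. The median was 0.15 with all 12 libraries, and 3 were positive at that level (all genes, 2.45%). Atrogin-1 (Fbxo32), a muscle ubiquitin ligase, fell in control from 204, 141 and 196 CPM to 114, 66.6 and 85.0. In dKO it went from 199 and 141 to 223 and 258 CPM and did not pass, and its interaction was 1.53 ± 0.35 (edgeR adjusted p 0.142). The mitophagy receptor Bnip3 had an interaction of 0.93 ± 0.27, and the kelch protein Klhl38 1.83 ± 0.57. The 19 oxidative stress genes had a median interaction of -0.18, with 7 positive. At an unadjusted p under 0.05, 3 were positive and 0 negative (all genes, 7.4% and 6.63%). With all 12 libraries they were 2 and 0 (all genes, 2.45% and 2.29%). Plasma glutathione peroxidase (Gpx3) rose in both genotypes and reached 1347 and 1762 CPM in TAC dKOs against 170 to 440 in TAC controls, an interaction of 1.71 ± 0.46. The quinone reductase Nqo1 rose in dKO, with an interaction of 0.93 ± 0.25. The 12 genes of steroid and cholesterol metabolism had a median of -0.17. Star, which carries cholesterol into mitochondria, rose in both genotypes: it stood at 0.781 to 1.33 CPM in sham controls and 0.971 and 1.58 in sham dKOs, at 2.96, 15.1 and 12.3 in TAC controls and at 49.6 and 56.5 in TAC dKOs. Its interaction was 2.09 ± 0.85, and that of the sterol synthesis enzyme Lss was 0.74 ± 0.28. The 19 TGF-beta and growth factor genes had a median of -0.13. The ligand Tgfb2 had 1.39 ± 0.56 and the stress cytokine Gdf15 1.65 ± 0.70, and both rose in dKO and did not pass in control.

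Interferon response genes had mostly negative interactions. Of 19 genes 2 were positive, 9 were negative at an unadjusted p under 0.05 (all genes, 6.63%), and the median was -0.67, from changes of 0.61 in control and -0.13 in dKO. Rsad2, the antiviral enzyme viperin, had 23.9 to 28.3 CPM in sham controls, 24.2 to 28.8 in TAC controls, 20.9 and 26.2 in sham dKOs and 9.61 and 13.1 in TAC dKOs, an interaction of -1.09 ± 0.23. Ifi44, an interferon-induced protein, changed by 0.93 in control, where it rose, and by -0.13 in dKO, with an interaction of -1.06 ± 0.34, and the transcription factor Irf9 had -0.67 ± 0.22. With all 12 libraries the list's median was -0.38 and none of the 19 genes had an unadjusted p under 0.05. Of 20 cytokine and acute phase genes, Lcn2 was positive and Ccl2, Cxcl12 and Cxcl1 were negative at that level (all genes, 7.4% and 6.63%). The median of the 20 was -0.97. Their median was -0.44 with all 12 libraries, and 1 was positive and 0 negative at that level (all genes, 2.45% and 2.29%). Lipocalin 2 (Lcn2), a secreted iron-binding protein, had 0.73 to 1.34 CPM in sham controls, 2.60 to 3.00 in TAC controls, 2.94 and 3.31 in sham dKOs and 25.8 and 33.2 in TAC dKOs. It rose in both genotypes, its interaction was 1.81 ± 0.32 (edgeR adjusted p 0.103), and the dKO TAC library left out had 29.2 CPM. The monocyte chemokine Ccl2 had -1.94 ± 0.65.

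The lists of endothelial, macrophage, fibroblast and smooth muscle markers had negative medians too. Of 10 blood and lymphocyte markers 4 could be tested, and these were positive, with a median of 0.34. That median ran from -0.93 to 0.89 over 15 alternatives and changed sign in 5. All 12 endothelial markers had a negative interaction, 8 of them at an unadjusted p under 0.05 (all genes, 6.63%), and the median was -0.82. Their summed level was 1782 to 2504 CPM in sham controls, 1851 to 2442 in TAC controls, 2240 and 2746 in sham dKOs and 1628 and 1291 in TAC dKOs, with 2147 and 2156 in the libraries left out. Emcn, an endothelial surface mucin, fell in dKO from 56.7 and 72.6 CPM to 30.7 and 35.4, and its interaction was -1.09 ± 0.25. The receptor Tie1 had -0.94 ± 0.27. The endothelial median was -0.48 with all 12 libraries, and 0 of 12 had an unadjusted p under 0.05, where 2.29% of all genes were negative. All 12 macrophage markers were negative as well, with a median of -0.85 and none at an unadjusted p under 0.05. Their sum was 175 to 370 CPM in sham controls, 246 to 771 in TAC controls, 269 and 334 in sham dKOs and 419 and 292 in TAC dKOs. The 12 fibroblast markers summed to 918 to 1532 CPM in sham controls, 865 to 2427 in TAC controls, 1105 and 1346 in sham dKOs and 1215 and 1081 in TAC dKOs, with a median interaction of -0.46. Smooth muscle and pericyte markers had a median of -0.43, which was -0.1 with all 12 libraries. The macrophage and fibroblast medians were then -0.59 and -0.34. No marker of these 4 lists was at 0 in any library. In RNA of mixed cells, fewer cells of a type and less RNA per cell cannot be told apart, and the part of other cells in the interferon, cytokine and matrix values was not tested.

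Atrial genes had the largest interactions by list. Of 6 genes tested all were negative, 5 at an unadjusted p under 0.05 (all genes, 6.63%), with a median of -4.52. Myl7, the atrial regulatory light chain, stood at 14.8, 5.27 and 1.82 CPM in sham controls, 71.0, 34.8 and 9.14 in TAC controls, 28.5 and 49.2 in sham dKOs and 0.474 and 0.452 in TAC dKOs. The libraries left out had 1.41 CPM in sham dKOs and 4.12 in TAC dKOs, so dKO sham itself ranged from 1.41 to 49.2 and the dKO groups overlapped once these were counted. Myl4, the atrial essential light chain, had 3.39 to 25.1 CPM in sham controls, 30.0 to 115 in TAC controls, 46.2 and 82.6 in sham dKOs and 3.28 and 3.98 in TAC dKOs. The libraries left out had 4.55 and 7.30. Sarcolipin (Sln), which inhibits the calcium pump, had 0.521 to 4.98 CPM in sham controls, 3.56 to 20.7 in TAC controls, 9.14 and 14.8 in sham dKOs and 0 and 0.0411 in TAC dKOs, and its fitted interaction of -11.15 depends on these near-empty libraries. Mybphl, a myosin-binding protein, rose in control, from a range of 0.484 to 1.69 CPM to one of 2.48 to 12.5, and fell in dKO from 5.36 and 9.83 to 0 and 0.246. Without Nppa, which overload also induces, the atrial markers summed to 22.0 to 64.4 CPM in sham controls, 86.5 to 239 in TAC controls, 105 and 175 in sham dKOs and 24.0 and 19.9 in TAC dKOs, with 49.0 and 27.5 in the libraries left out. The part of atrial tissue in these values was not tested.

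**Figure D5:**
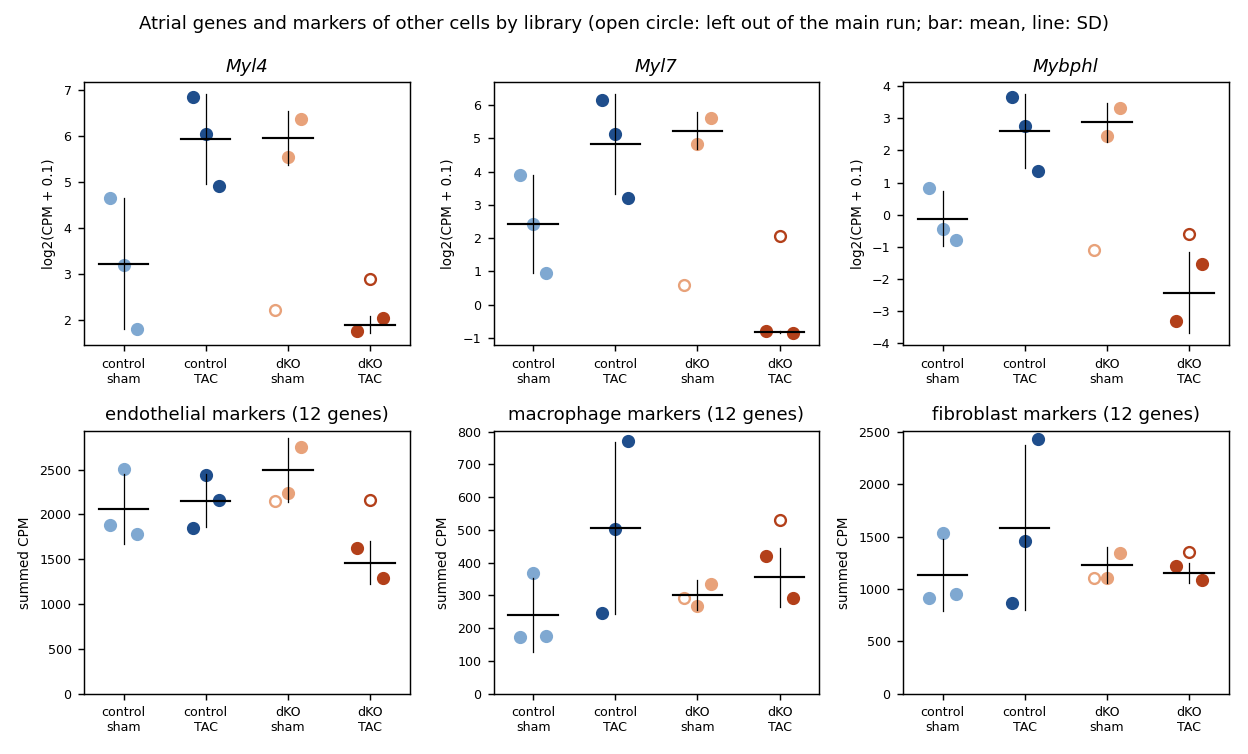
Atrial genes as log2(CPM + 0.1) and summed CPM of 12 endothelial, 12 macrophage and 12 fibroblast markers in every library, with open circles for the libraries left out and bars and lines for mean and SD of the others. Myl4, Myl7 and Mybphl are high in TAC controls and in the filled dKO sham libraries and low in TAC dKOs, and dKO sham replicate 1 lies with the low libraries.

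Across all 43 lists, 17 had a positive, 25 a negative and 1 a zero median interaction, and none of their 742 measured genes passed the test of the interaction. The median changed sign in at least 1 alternative fit in 23 lists, among them cell cycle (7 of 15 alternatives) and potassium channels (6). It kept its sign in all 15 alternatives for the lists of junctions (0.36 to 0.60), costameres (0.11 to 0.37), the fetal program (0.20 to 0.55), atrophy (0.15 to 0.43), MRTF and SRF targets (-0.49 to -0.14), interferon (-0.86 to -0.38), endothelial (-1 to -0.48) and atrial genes (-5.13 to -3.94). Other lists also kept their sign, so this was not particular to those named. Among them were macrophage markers (-1.36 to -0.41), cytokines (-1.26 to -0.29) and smooth muscle markers (-0.75 to -0.1).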

How the data were processed

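RNA of sedimented cardiomyocytes was measured in 12 libraries. The authors deposited raw read counts per gene, whole numbers for 49568 genes, made with Trimmomatic 0.36, STAR 2.5.2b, Subread 1.5.0p3 and featureCounts on GRCm38.p5, per the submitters' processing notes. The sources used here do not give settings, strand use or annotation. The kit selects poly(A) RNA and marks strands, and reads were single, of 100 nt, per the labels' protocols.

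The interaction was fitted with edgeR 4.0.16 (R 4.3.3; quasi-likelihood F test, TMM, filterByExpr, Benjamini-Hochberg over all genes, threshold 0.05). The 10 libraries left 14923 genes and 6 residual degrees of freedom, and the 12 left 14712 and 8. SEs come from the log2 value and its F statistic. CPM use TMM-scaled totals, and intervals are 95%. Of tested genes 14759 matched GENCODE M21 by symbol or synonym. DESeq2 1.42.0, limma-voom 3.58.1, other scaling, filters, a replicate block, a length correction and leaving out single libraries were alternatives, and figures used matplotlib 3.10.9. No library pair was a duplicate. Steps were tested on simulated data.

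Named were 10 fixed genes (Acta1, Ankrd1, Mkl1, Mkl2, Myh6, Myh7, Myocd, Nppa, Nppb, Srf). To these were added, per direction, the 10 called genes of at least 5 CPM with the most extreme interaction, filled by the smallest p and without predicted or mitochondrial genes. At least 2 members of each list described were also named, those with the smallest p. Members and lists were chosen with earlier results of these data known.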

Additional observations from a re-analysis of the deposited data

Results flagged for a closer look

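The response to TAC differed between the genotypes for 2 genes by the test of the interaction. Prkab2 had an interaction of 2.73 ± 0.22 on the log2 scale, with every TAC library of the main comparison above every sham library in dKO and overlapping groups in control. Dync1li1 had an interaction of 1.23 ± 0.13, with TAC above sham in both genotypes. Both keep their sign and lose the call in the edgeR fits of all 12 libraries. Of 25 alternative fits, which share most libraries, 19 called Prkab2 and 11 called Dync1li1.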

How the results depend on the processing

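Counts of genes called depended on the libraries and on the tool. Genes with a higher and a lower interaction numbered 2 and 0 in 10 libraries. The higher count was 0 with all 12 libraries, with dKO TAC replicate 2 put back, with a replicate block on 12 libraries and with the length trend removed from 12, and it was 1 with dKO sham replicate 1 put back. DESeq2 gave 312 and 153, DESeq2 on 12 libraries 8 and 3, voom with sample weights on 12 libraries 1157 and 1342, and no filter on low counts 67 and 61. With the length trend removed from 10 libraries, 1 gene was lower. Leaving out 1 library gave 0 to 13 higher and 0 to 6 lower.

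TAC in control gave 501 higher and 270 lower genes. It gave 280 and 51 with 12 libraries, 205 and 31 with dKO sham replicate 1 put back, 1302 and 818 with DESeq2, 755 higher with DESeq2 on 12 libraries, 226 and 173 with voom, 3322 and 2965 with weighted voom, 1338 and 879 with no filter, 212 and 146 among genes averaging 5 CPM or more, and 87 lower with the length trend removed from 12 libraries. Leaving out 1 library gave 5 to 2084 higher and 3 to 1541 lower. TAC in dKO gave 885 and 695. It gave 513 and 383 with dKO TAC replicate 2 put back, 547 and 357 with dKO sham replicate 1 put back, 1415 and 1161 with DESeq2, 1239 lower with DESeq2 on 12 libraries and 3024 and 2945 with weighted voom. Leaving out 1 library gave 19 to 1465 higher and 18 to 1248 lower. The cause of these differences was not tested.

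Equal replicate numbers were not treated as pairs. Over 18 same-numbered pairs the correlation of deviations ran from -0.661 to 0.51, 11 were over 0.1, and 5 of 12 libraries correlated best with their own number. Over 36 pairs of differing number it ran from -0.629 to 0.593, and 13 were over 0.1. With a replicate block the interaction had 1 higher gene, Prkab2, and 0 lower ones, TAC in control 230 and 112, and TAC in dKO 533 and 425. With the block on 12 libraries the counts were 0 and 0, 214 and 38, and 565 and 372. Dync1li1 had an edgeR adjusted p of 0.109 with the block. Of 107 named genes 101 kept the sign of the interaction in every one of up to 25 alternatives. Most were named for a small p in the same data, and the alternatives share libraries, so this is not independent evidence. DESeq2 on 12 libraries and the scaling and length alternatives of the lists were added after the data were seen.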

Other observations

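The genes described here were singled out after their values were seen. Among 9 subunits of cytoplasmic dynein that could be tested, 6 had a positive interaction at an unadjusted p under 0.05 and none a negative one, where 7.4% of all genes are positive. Beside Dync1li1 these were the heavy chain Dync1h1 (0.43 ± 0.17), the intermediate chain Dync1i2 (0.40 ± 0.12), the second light intermediate chain Dync1li2 (0.38 ± 0.14), and the light chains Dynlt3 (0.34 ± 0.13) and Dynlt1b (1.2 ± 0.47). Dynlt1b was scarce, with a mean of 0.69 CPM, below the level of 5 CPM used for naming. Dync1i2 stood at 62.1 to 65.0 CPM in sham controls, 66.8 to 69.7 in TAC controls, 58.2 and 59.4 in sham dKOs and 83.1 and 83.6 in TAC dKOs, and the libraries left out had 47.9 and 71.3. The light chains Dynll1, Dynll2 and Dynlrb1 had interactions of -0.16, 0.01 and 0.01. None but Dync1li1 passed the edgeR test over all genes. Dync1li1 was, with all 12 libraries, the 1 subunit of 9 with an unadjusted p under 0.05, where 2.45% of all genes are positive.

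Of the 7 AMPK subunits, Prkab2 was the 1 with an unadjusted p under 0.05. The alternative beta subunit Prkab1 fell in both genotypes, from a range of 35.5 to 36.6 CPM to one of 20.9 to 25.2 in control and from 36.6 and 39.3 to 20.4 and 22.4 in dKO, with an interaction of -0.19 ± 0.15. The catalytic subunits Prkaa1 and Prkaa2 had 0.10 ± 0.20 and 0.53 ± 0.33, and the gamma subunits Prkag1, Prkag2 and Prkag3 had -0.14 ± 0.20, 0.37 ± 0.17 and 0.70 ± 0.43.

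The predicted gene Gm45670, outside the naming rule, stood at 24.3 to 38.9 CPM in the control libraries, 21.4 and 21.7 in sham dKOs and 4.23 and 5.67 in TAC dKOs. Its interaction was -2.17 ± 0.29 (edgeR adjusted p 0.0566). The libraries left out had 48.5 CPM in sham dKOs and 6.05 in TAC dKOs, and with all 12 libraries the interaction was -2.57.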
